A study of Rattus norvegicus with 28 samples.

Results

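The genes described here were the calcium/calmodulin-dependent protein kinases and the cAMP response element binding factors of the rat spinal cord, 10 genes read by 16 probes among the 35469 gene names and 41012 probes of the array. They were Camkk1, Camkk2, Camk1, Camk2a, Camk2b, Camk2d, Camk2g, Camk4, Creb1 and Crem. They were chosen by gene name from these 2 families, with earlier results of the same arrays known, so the values below describe these arrays and are no independent support for any direction. All tissue came from adult female Sprague Dawley rats. The T0 cords, labelled sham, carried no contusion. The T1, T2, T4 and T8 cords were taken 1, 2, 4 and 8 weeks after a severe contusion of 250 kdyn at thoracic level 8. In T1_NPC, neural progenitor cells were injected right after the injury and the cord was taken at 1 week. In T2_NPC the same number of cells was injected 1 week after the injury and the cord was taken at 2 weeks. Per the study's methods, injured control animals received an equal volume of medium without cells. The progenitor cells had been grown from injured adult rat cords, and the protocol shared by all samples lists the immunosuppressant FK-506 from the day before transplantation to the end point. Each of the 7 groups held 4 arrays of total RNA from cord around the epicentre, with a length of 1.5 cm given for all groups. The label of T2_NPC names a shorter span of cord than the other labels and does not mention removal of the dura mater.

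When calcium enters a cell it binds calmodulin, and the complex switches on a family of kinases. The upstream kinases CaMKK1 and CaMKK2 phosphorylate and so raise the activity of CaMKI and CaMKIV, and CaMKK2 also acts on AMP-activated protein kinase. CaMKII works apart from this cascade as a large holoenzyme of alpha, beta, gamma and delta subunits, the alpha and beta subunits being abundant in neurons. CaMKIV lies largely in the nucleus, where it phosphorylates CREB, a transcription factor that binds the cAMP response element. CREM is a close relative of CREB whose gene gives rise to both activators and repressors through alternative promoters and splicing.

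No probe of Camkk1, Camk2d or Creb1 is printed. Of Camkk2, Camk1, Camk4, Camk2a, Camk2b, Camk2g and Crem 1 probe each is shown, so that the part of the transcript it read can be seen. Each is printed 5′ to 3′ in lower case, and coordinates are those of the array files on the rat build rn4. The Camkk2 probe (chr12:34930464-34934857), the Camk2a probe (chr18:56904401-56918266), the Camk2b probe (chr14:86645232-86645447, minus strand) and the Camk2g probe (chr15:3783656-3785221) covered more genome than their 60 bases, so they spanned an intron of the spliced transcript. The Camk4 probe (chr18:25625515-25625574), the Camk1 probe (chr4:149221474-149221533, minus strand) and the Crem variant 2 probe (chr17:62830680-62830739) each lay in 1 block.
Camkk2: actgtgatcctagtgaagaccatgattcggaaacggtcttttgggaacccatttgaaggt
Camk1: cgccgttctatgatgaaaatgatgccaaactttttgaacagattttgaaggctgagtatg
Camk4: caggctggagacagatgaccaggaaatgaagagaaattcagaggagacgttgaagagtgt
Camk2a: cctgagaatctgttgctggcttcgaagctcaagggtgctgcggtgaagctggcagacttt
Camk2b: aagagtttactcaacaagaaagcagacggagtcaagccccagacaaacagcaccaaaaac
Camk2g: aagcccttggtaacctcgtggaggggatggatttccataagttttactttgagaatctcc
Crem variant 2: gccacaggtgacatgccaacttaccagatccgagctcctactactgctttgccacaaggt

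Levels are the authors' quantile normalized log2 values, averaged over the spots of a probe and over the probes of a gene. A level is comparable between arrays for 1 gene but not between genes. Each fold change comes from limma's moderated test over all 35469 gene names and all 28 arrays, and a gene was called when its Benjamini-Hochberg adjusted p was below 0.05. Before these values are read, a conflict in the deposit matters. Each column of the value table matched exactly 1 scanner output in rank order, but for 16 of the 28 arrays, on 4 slides, that output was deposited under another sample. The groups below follow the value table, and the other 12 arrays are called undisputed. They comprised 2 of T0, 1 of T1, 2 of T2, 1 of T4, 2 of T8, all 4 of T2_NPC and 0 of T1_NPC. When the scanner outputs were instead taken under their deposited samples, 0 members were called in any comparison, and the count over all gene names was 0 for T1, T4 and T8 against T0 and 1 for T2 against T0, with 43 for T2_NPC against T2 and 4 for the difference between the transplantation effects. At an unadjusted p below 0.05 by limma 0, 1, 5 and 1 members then passed in T1, T2, T4 and T8, beside 2426, 1625, 8405 and 4961 of all 35469 gene names. By the same matching, the time course was scanned in 2 sessions and each transplanted group lay on a slide of its own in a further session, so transplantation cannot be told apart from slide and session. For T2_NPC, transplantation also cannot be told apart from the shorter span of cord that its label names. The 8 undisputed time-course arrays were exactly those of the first session.

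At 1 week after contusion 6 of the 10 members were lower than in T0 and 2 were higher, where 25.1% of all gene names were called lower and 19.1% higher. At 2 weeks 6 were lower and 1 higher, beside 22.2% and 17.7% of all gene names. At 4 weeks 5 were lower and 1 higher, beside 21.0% and 17.5%. At 8 weeks 5 were lower and 1 higher, beside 21.5% and 18.2%. The members were chosen with these contrasts known, so nothing is read from the counts. The median log2 change of the members was -1.12, -1.38, -0.77 and -0.78 at the 4 times, against -0.10, -0.06, -0.06 and -0.04 over all gene names. Camkk1, Camkk2, Camk2a, Camk2b and Camk4 were lower at all 4 times, with every array of T1, T2, T4 and T8 below every T0 array. The share of all gene names that met either condition was not counted, so this is not read as particular to these genes.

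**Figure D1:**
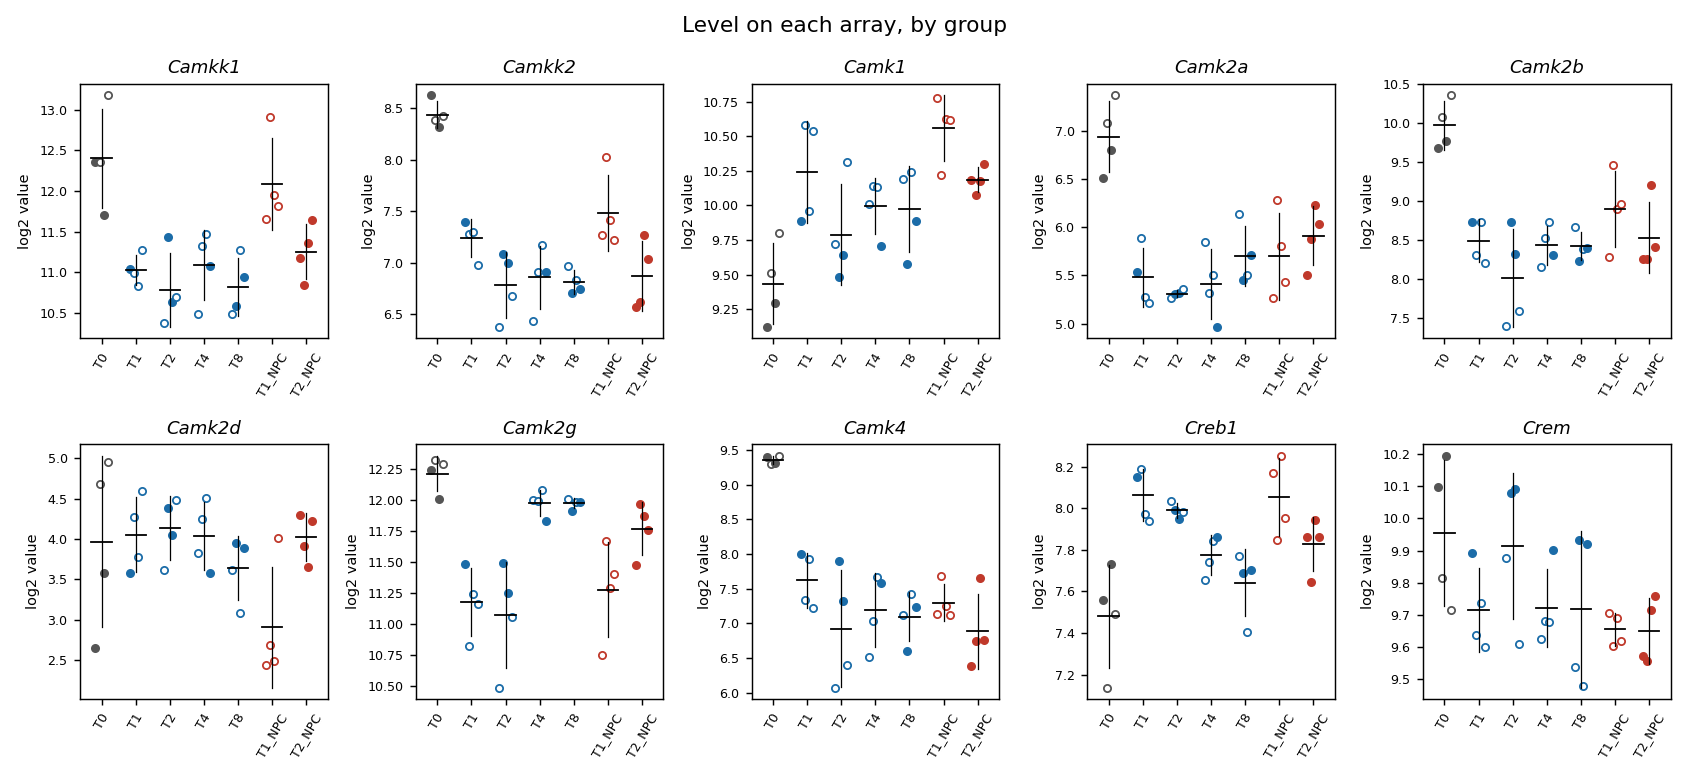
Level of each of the 10 genes (y axis, log2 value, a separate scale per gene) on each array, by group (x axis); grey is T0, blue injured and red transplanted, filled points are the 12 undisputed arrays, and lines give the mean and 1 SD of 4 arrays. Camk4 lay between 9.29 and 9.41 on the T0 arrays and at or below 8.00 on every other array, while Camk2g was low in T1 and T2 and close to T0 in T4 and T8.

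Of the upstream kinases, Camkk2 stood at 8.63, 8.39, 8.32 and 8.42 on the T0 arrays. It read 7.40, 7.28, 7.30 and 6.97 in T1, and 6.38, 7.08, 7.00 and 6.68 in T2. The 2 groups of injured arrays did not overlap T0. The log2 change was -1.20 ± 0.19 (SE, n = 4 per group) in T1, an adjusted p of 1.77e-05 by limma, and -1.66 ± 0.19 in T2, adjusted p = 2.95e-07. Levels then stayed down, at 6.86 ± 0.31 (SD, n = 4) in T4 and 6.81 ± 0.12 in T8. Camkk2 at 8 weeks was at 0.324 times its T0 level, with an adjusted p of 3.79e-07 by limma. On the undisputed arrays alone the change was -1.07 in T1 and -1.75 in T8.

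Camkk1, the other upstream kinase, was more variable in intact cord. Its 4 T0 arrays read 12.36, 12.36, 11.70 and 13.18, and its T1 arrays 11.04, 10.99, 10.83 and 11.27. All injured arrays without transplanted cells lay between 10.38 and 11.47, below the lowest T0 array. It changed by -1.37 ± 0.30 in T1 (adjusted p = 0.000634, limma) and -1.58 ± 0.30 in T8 (adjusted p = 0.000162, limma). On the undisputed arrays Camkk1 was not called in T1 (-0.99, adjusted p = 0.133 by limma), T2 (-0.999, adjusted p = 0.0686) or T4 (-0.95, adjusted p = 0.157). It was called there in T8 at -1.27, but not within the first session fitted alone (adjusted p = 0.0628 by limma).

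Camk4, the nuclear kinase that CaMKK activates, showed the lowest values relative to T0 of the 10 genes. Its T0 arrays were tight at 9.40, 9.29, 9.31 and 9.41. The T1 arrays read 8.00, 7.34, 7.93 and 7.22, and the T2 arrays spread widely over 6.08, 7.91, 7.32 and 6.40. The log2 change of Camk4 was -1.73 ± 0.33 in T1 (adjusted p = 0.000145, limma), -2.43 ± 0.33 in T2 (adjusted p = 2.71e-06) and -2.25 ± 0.33 in T8 (adjusted p = 6.94e-06). At T2 this was 0.186 times the T0 level. The undisputed arrays gave -1.74 in T2 and -2.43 in T8, and -1.35 in T1 with an adjusted p of 0.0818 by limma.

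Camk1, the cytoplasmic target of the CaMKKs, went the other way. It read 9.12, 9.51, 9.30 and 9.80 in T0 and 9.89, 10.58, 9.96 and 10.53 in T1, without overlap. Camk1 rose by 0.81 ± 0.20 on the log2 scale (adjusted p = 0.00171, limma), or 1.75-fold. It was 0.36 ± 0.20 in T2, adjusted p = 0.165 by limma, with groups that overlapped. The calls in T4 (0.56, adjusted p = 0.0265 by limma) and T8 (0.54, adjusted p = 0.0322) also came from overlapping groups, and they were lost without any 1 of 5 and 4 arrays, respectively. These arrays were T0 replicates 1 and 3 for both, with T4 replicates 1, 2 and 3 or T8 replicates 1 and 3, and the highest adjusted p by limma was 0.0988 in T4 and 0.115 in T8. For Camk1 the undisputed arrays, with 1 array each of T1 and T4, gave 0.68 in T1, 0.50 in T4 and 0.52 in T8. The T8 call was also lost with the time-course arrays only (adjusted p = 0.0541 by limma) or only the compared groups (adjusted p = 0.0679). Within the second scan session Camk1 was not called in T4 (0.43, adjusted p = 0.169 by limma) or T8 (0.56, adjusted p = 0.112).

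Among the CaMKII subunits, both neuronal forms were lower throughout. Camk2a read 6.51, 7.08, 6.80 and 7.37 in T0 against 5.54, 5.89, 5.27 and 5.21 in T1. The log2 change was -1.46 ± 0.23 in T1 (adjusted p = 1.4e-05, limma), -1.62 ± 0.23 in T2 (adjusted p = 4.05e-06) and -1.24 ± 0.23 in T8 (adjusted p = 0.000112). Camk2b read 9.68, 10.08, 9.77 and 10.36 in T0 against 8.73, 8.31, 8.73 and 8.20 in T1. Its log2 change was -1.48 ± 0.27 in T1 (adjusted p = 9.67e-05, limma), -1.96 ± 0.27 in T2 (adjusted p = 3.48e-06) and -1.55 ± 0.27 in T8 (adjusted p = 6.3e-05). All 3 Camk2b probes were called lower at all 4 times when probes were tested singly. The Camk2b probe printed above gave -1.89 in T1, the other 2 probes -1.20 and -1.35. On the undisputed arrays the T1 change of Camk2b was -0.99, adjusted p = 0.0923 by limma, and its T2 change was -1.20, against -2.73 within the second scan session.

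The gamma subunit followed another course. Camk2g read 12.24, 12.32, 12.01 and 12.29 in T0, then 11.49, 10.82, 11.25 and 11.16 in T1 and 10.49, 11.49, 11.25 and 11.06 in T2. The 4 arrays of T4 lay between 11.84 and 12.09, and those of T8 read 12.01, 11.92, 11.98 and 11.99. The early groups lay wholly below T0 and the late groups overlapped it. The log2 change was -1.03 ± 0.19 in T1 (adjusted p = 7.27e-05, limma) and -1.14 ± 0.19 in T2 (adjusted p = 2.53e-05). The changes of Camk2g were smaller on the undisputed arrays, at -0.63 in T1, where the call was lost (adjusted p = 0.0618 by limma), and -0.75 in T2. In T4 it was -0.23 over all arrays, with a 95% confidence interval of -0.62 to 0.15, and in T8 -0.24, with an interval of -0.62 to 0.15. Between T2 and T4 the gamma subunit differed by 0.91 ± 0.19, and all 4 T4 arrays exceeded all 4 T2 arrays. This step had an adjusted p of 0.0551 by limma and so missed the threshold. Over the alternative settings the adjusted p by limma ran from 0.0154, with scan session as a fixed block, to 0.95, and on the undisputed arrays the difference was 0.46, adjusted p = 0.939.

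**Figure D2:**
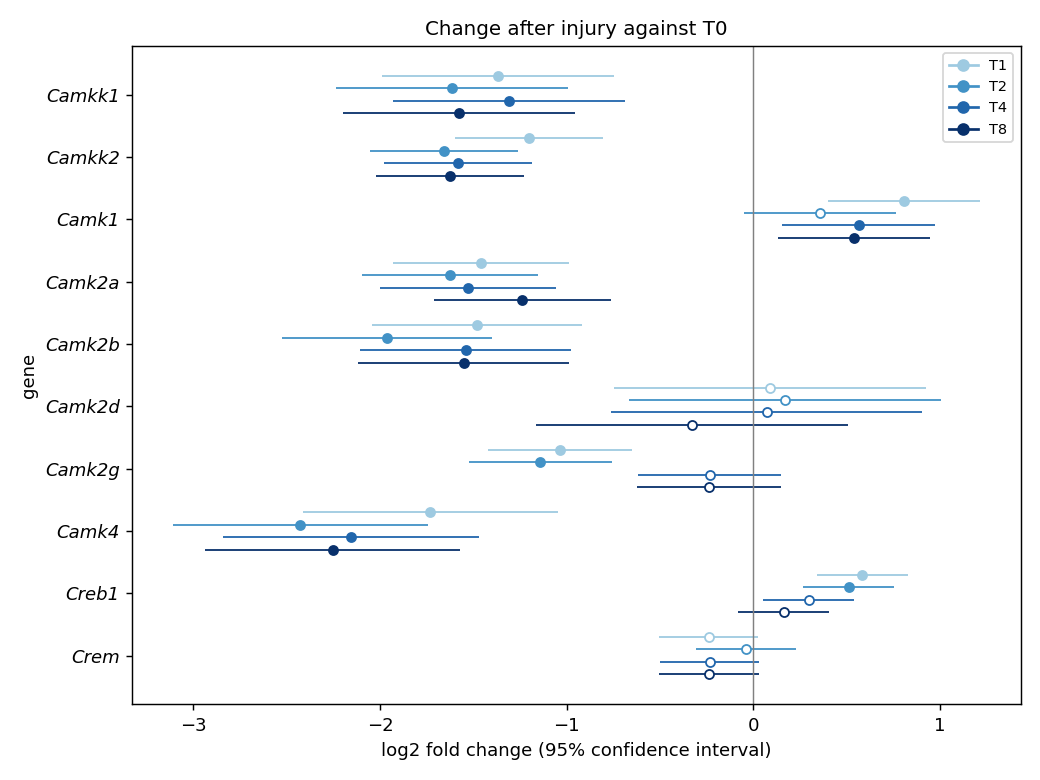
Log2 fold change against T0 (x axis) of each of the 10 genes (y axis) at 4 times after contusion, with 95% confidence intervals; filled points had an adjusted p below 0.05. The points of Camk2g moved from -1.03 in T1 to -0.24 in T8, while those of Camkk2 lay between -1.20 and -1.66.

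Within an array, the difference of Camk2b from Camk2g, set to 0 at the T0 mean, was -0.45 ± 0.22 (SD, n = 4) in T1 and -0.82 ± 0.30 in T2. It stood at -1.31 ± 0.21 in T4 and -1.31 ± 0.14 in T8. The difference was lower on every T4 and T8 array, at -1.11 or below, than on any T1 array, at -0.72 or above, while the T2 arrays reached down to -1.23 and overlapped T4 and T8. For Camk2a less Camk2g, T8 reached up to -0.60 and overlapped T1, which reached down to -0.69. These differences within an array were not tested. The delta subunit could not be followed. Its single Camk2d probe was well above background on 9 of the 28 arrays, on 2 each of T0, T1, T2 and T4, 1 of T2_NPC and 0 of T8 and T1_NPC. No fold is given for it. Its change from T0 to T2 was 1.11 in the first scan session and -0.77 in the second, and to T8 it was 0.81 and -1.47, so the sign differed between sessions.

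Creb1, the effector at the end of the cascade, was higher early after injury. It read 7.56, 7.14, 7.73 and 7.49 in T0, then 8.15, 8.19, 7.97 and 7.94 in T1 and 8.04, 7.99, 7.95 and 7.98 in T2. Neither injured group overlapped T0. The log2 change was 0.58 ± 0.12 in T1 (adjusted p = 0.000282, limma) and 0.51 ± 0.12 in T2 (adjusted p = 0.00117), that is 1.50-fold and 1.42-fold. It was 0.30 ± 0.12 in T4, which missed the threshold with an adjusted p of 0.0514 by limma, and 0.16 ± 0.12 in T8, adjusted p = 0.307. Creb1 in T4 was called when scaled to the 75th percentile (0.37, adjusted p = 0.0214 by limma), and with matched scanner signals, the brightest probe or dim probes left out. Slide or scan session as a block (lowest adjusted p 0.00743 by limma) and leaving out any 1 of 5 arrays also gave the call. Normexp, eBayes with trend and robust settings, the time-course arrays only, only the compared groups, the replicate block and the second session did not. The group means thus stood in the order T1, T2, T4, T8 and T0, in which T4 and T8 both overlapped T0, T2 overlapped T1 and T8 overlapped T4. Its 2 probes overlap in sequence and are no independent readings. They gave 0.58 and 0.59 in T1. On the undisputed arrays the change was 0.50 in T1 and 0.33 in T2, the latter with an adjusted p of 0.0758 by limma.

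Crem as a mean of 3 probes was not called at any time, its log2 change lying between -0.24 and -0.04. The probes differed, however. Each is named by its annotated target, and whether it reads only that transcript variant was not tested. The variant 2 probe printed above read 11.05, 10.67, 11.13 and 10.75 in T0 and 10.43, 9.89, 10.32 and 10.11 in T1, without overlap. Tested singly, its log2 change was -0.71 ± 0.17, adjusted p = 0.0011 by limma over single probes. The first of 2 probes annotated to transcript variant 3 gave 0.24 ± 0.14 in T1 (adjusted p = 0.153, limma), and the second -0.25 ± 0.17 (adjusted p = 0.231). Within an array, the variant 2 probe less the first variant 3 probe, set to 0 at the T0 mean, ranged from -0.09 to 0.17 in T0 and from -1.15 to -0.83 in T1. Later it stood at -0.68 ± 0.14 (T2), -0.47 ± 0.13 (T4) and -0.49 ± 0.19 (T8). These probes were singled out after their values were seen, and the difference was not tested.

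**Figure D3:**
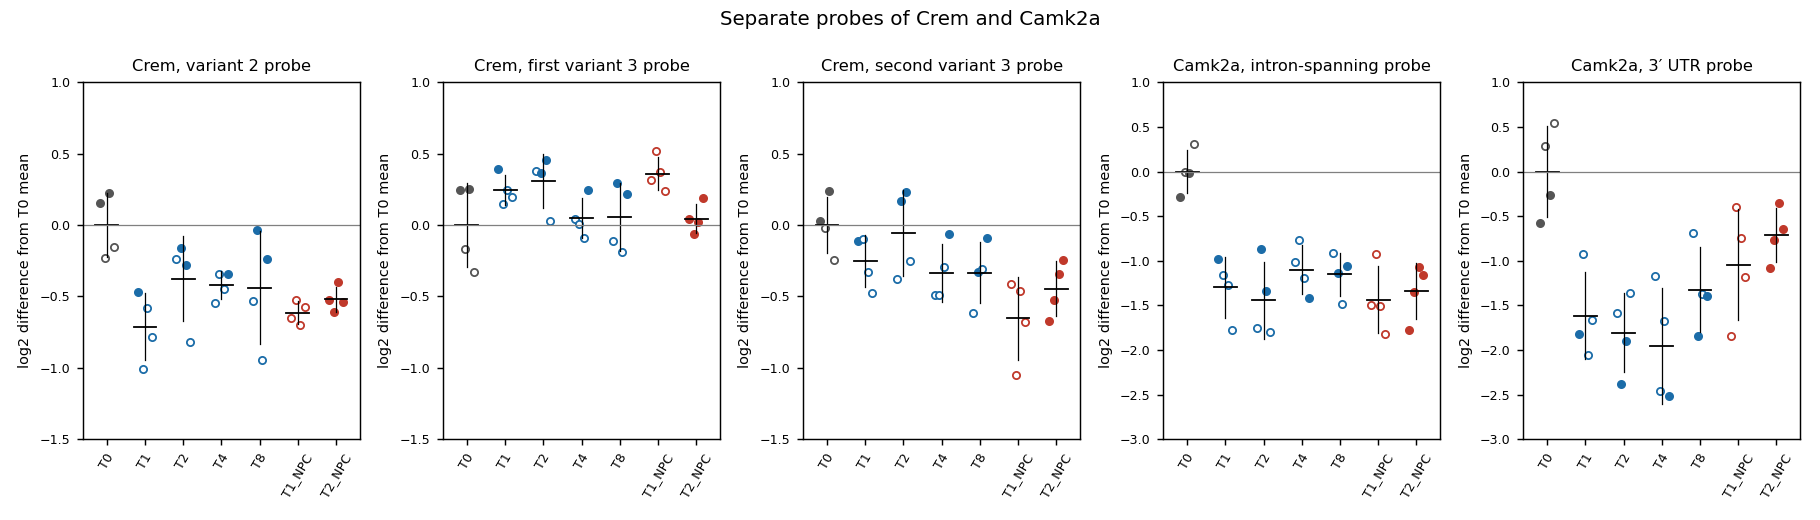
Log2 difference from the T0 mean (y axis) on each array, by group (x axis), for the 3 probes of Crem and the 2 probes of Camk2a; colours, filled points and lines as in the plot of levels by group. The Crem variant 2 probe was below the T0 mean on every injured array, while the first variant 3 probe was above it on all 4 T1 arrays.

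Of the 2 windows of Creb1 and the 3 of Crem, 3 are shown because CREB and CREM bind the cAMP response element. The sequences are the 250 bases before a RefSeq start on build GRCr8, and capitals mark TGACGTCA, the full element, and TGACG, its core, on either strand. The core also matches within every full element. Over all 33469 such windows 1.59% held the full letters and 18.22% the core. Of the 10 members 9 had an entry, with 12 windows in all, of which 2 held the full letters, both of Crem, and 7 the core. Camkk2 had no entry. Of the windows not printed, the first of Crem held the core alone, at 2 places, and the second of Creb1 held neither. The Crem windows were chr17:58984547-58984796 and chr17:58985240-58985489, and the first Creb1 window was chr9:73397259-73397508, all on the plus strand. A match is a description of letters, and no binding was measured.
Crem, second start: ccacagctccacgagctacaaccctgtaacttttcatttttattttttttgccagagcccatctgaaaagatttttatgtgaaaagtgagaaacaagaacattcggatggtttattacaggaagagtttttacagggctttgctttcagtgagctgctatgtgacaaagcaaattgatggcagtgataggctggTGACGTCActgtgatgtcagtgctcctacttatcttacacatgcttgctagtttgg
Crem, last start: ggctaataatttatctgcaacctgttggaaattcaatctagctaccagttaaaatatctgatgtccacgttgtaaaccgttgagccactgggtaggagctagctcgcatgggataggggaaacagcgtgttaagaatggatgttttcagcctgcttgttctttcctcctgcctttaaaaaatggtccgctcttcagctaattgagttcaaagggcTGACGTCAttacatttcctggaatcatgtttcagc
Creb1, first start: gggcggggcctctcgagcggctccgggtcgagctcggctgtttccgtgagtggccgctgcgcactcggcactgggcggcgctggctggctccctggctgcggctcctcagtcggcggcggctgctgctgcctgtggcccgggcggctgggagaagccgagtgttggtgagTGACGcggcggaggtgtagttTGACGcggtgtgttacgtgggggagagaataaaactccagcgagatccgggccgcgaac

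The tissue was whole cord, so fewer cells of a type and less RNA per cell cannot be told apart. Of 8 neuron markers on the array, 7 were lower in T1, Chat being the exception with a log2 change of -0.41, and 8 were lower in T2 and T4, with 7 in T8. Snap25, a synaptic vesicle fusion protein, fell the most of them in T1, at -2.32. The mean log2 value over the neuron markers ranged from 11.90 to 12.22 in T0 and from 10.03 to 10.95 in T1, and it moved with the lower values of Camkk1, Camkk2, Camk4, Camk2a and Camk2b. It stayed between 10.06 and 10.48 in T8, where Camk2g was again near T0. All 6 microglia and macrophage markers and all 6 T cell markers were higher in T1. The mean over the former was 8.82 in T0 and 11.85 in T1, without overlap, moving with the higher values of Camk1 and Creb1 in T1. It stayed at 11.59 in T2, where Creb1 was called and Camk1 was not, and at 11.22 in T8, where Camk1 was called and Creb1 was not. The mean over the T cell markers ranged from 4.05 to 4.72 in T0 and from 7.10 to 7.83 in T1, and Cd3e and Cd2 were not well above background on any T0 array. Of the other cell types, 3 of 5 oligodendrocyte markers were lower in T1 and 0 higher, 2 of 5 astrocyte markers were lower and 1 higher, all 3 Schwann cell markers and 2 of 3 progenitor markers were higher, and of 5 skeletal muscle markers 2 were higher and 2 lower. The mean over the Schwann cell markers rose from 7.08 in T0 to 12.14 in T8. The part of these cells in the members' values was not tested.

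Scaling and scan session moved these values as follows. Setting each array to its 75th percentile in place of the quantiles moved the median change of all gene names in T1 from -0.10 to -0.27, and all 8 members called in T1 were called in the same direction. Within the second scan session alone, with 2 T0 arrays, Camkk2 changed by -1.22 in T1 and -1.88 in T2, Camk4 by -1.86 and -3.11, and Creb1 by 0.72 and 0.70. Within the first session these were -1.07 and -1.43 for Camkk2, -1.35 and -1.74 for Camk4, and 0.50 and 0.33 for Creb1.

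Other genes of calcium/calmodulin signalling were taken from lists of family members. All 5 further CaM kinases and CaMKII inhibitors on the array were lower at each of the 4 times. Pnck, which encodes CaMKI beta, changed most in T1 at -1.85 ± 0.36 (adjusted p = 0.000209, limma). Of 5 calmodulin genes and calmodulin-binding buffers 4 were lower in T1 and 0 higher, and Pcp4, a small calmodulin-binding protein, changed most at -1.94. Of 6 genes of calcineurin, the calmodulin-dependent phosphatase, and its regulators, 3 were lower and 1 higher in T1. Rcan2 was at -1.08, and Rcan1, an inhibitor that calcineurin signalling itself induces, was the one higher at 0.50 ± 0.09 (adjusted p = 4.56e-05, limma). Of 8 CREB relatives and co-activators on the array, 2 were higher in T1, 1 lower and 5 not called. Atf1, which forms dimers with CREB, was at 0.43, and Atf2 at -0.38. Neither of the 2 catalytic AMP-activated kinase subunits was called at any time after injury against T0, with Prkaa1 at 0.39 and Prkaa2 at -0.11 in T1.

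Between successive times 0 members were called. From T1 to T2 the share of all gene names called was 1.48%, from T2 to T4 0.0761% and from T4 to T8 0.0902%. At an unadjusted p below 0.05 by limma, 3, 1 and 0 members passed, namely Camkk2, Camk1 and Camk4 from T1 to T2 and Camk2g from T2 to T4. Of all 35469 gene names, 4932, 3198 and 1716 passed at that level. Camkk2 changed by -0.45 and Camk4 by -0.70 from T1 to T2, each with a 95% confidence interval that reached close to 0, at -0.06 and -0.01.

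Transplantation was compared with the injured cord of the same week. In T1_NPC against T1, 1 member was higher and 0 lower, beside 5.45% of all gene names called higher and 6.46% lower. In T2_NPC against T2, 1 was higher and 0 lower, beside 4.62% and 4.85%. Camkk1 read 11.66, 12.91, 11.95 and 11.81 in T1_NPC, all above the T1 arrays, which reached 11.27. The log2 difference was 1.05 ± 0.30 (adjusted p = 0.0247, limma), or 2.07-fold. In T2_NPC against T2 it was 0.47 ± 0.30, adjusted p = 0.356 by limma. The Camkk1 call was lost without T1 replicate 2, T1 replicate 3 or T1_NPC replicate 2, where the difference was 1.04, 0.98 and 0.77 and the adjusted p by limma 0.0536, 0.0685 and 0.108. T1_NPC replicate 2 was also the highest T1_NPC array for Camkk2, Camk2a, Camk2b, Camk2g and Camk4. The scanner output that matched it was deposited as T0 replicate 2. T1_NPC has no undisputed array, so no value without the disputed ones can be given. When each scanner output was given the sample it was deposited with, the Camkk1 difference turned to -1.02 (adjusted p = 0.9999 by limma).

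Camk2g was the member called in T2_NPC. It read 11.48, 11.97, 11.88 and 11.76 there against 10.49, 11.49, 11.25 and 11.06 in T2, and the groups overlapped at their edge. The log2 difference was 0.70 ± 0.19 (adjusted p = 0.0199, limma), or 1.62-fold. It was lost without T2 replicate 1 (0.50, adjusted p = 0.0872 by limma), T2_NPC replicate 2 (0.63, adjusted p = 0.0687) or T2_NPC replicate 3 (0.66, adjusted p = 0.0544). On the undisputed arrays it was 0.40, adjusted p = 0.111 by limma. There Camk1 (0.62, adjusted p = 0.012 by limma) and Crem (-0.44, adjusted p = 0.0146 by limma) were called instead. In T1_NPC the difference of Camk2g from T1 was 0.10 ± 0.19. The Camk2d probe read 2.43, 2.69, 2.49 and 4.02 in T1_NPC, where it was on no array well above background, against 3.58, 4.27, 3.77 and 4.60 in T1, so no fold is given (adjusted p = 0.0653 by limma).

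**Figure D4:**
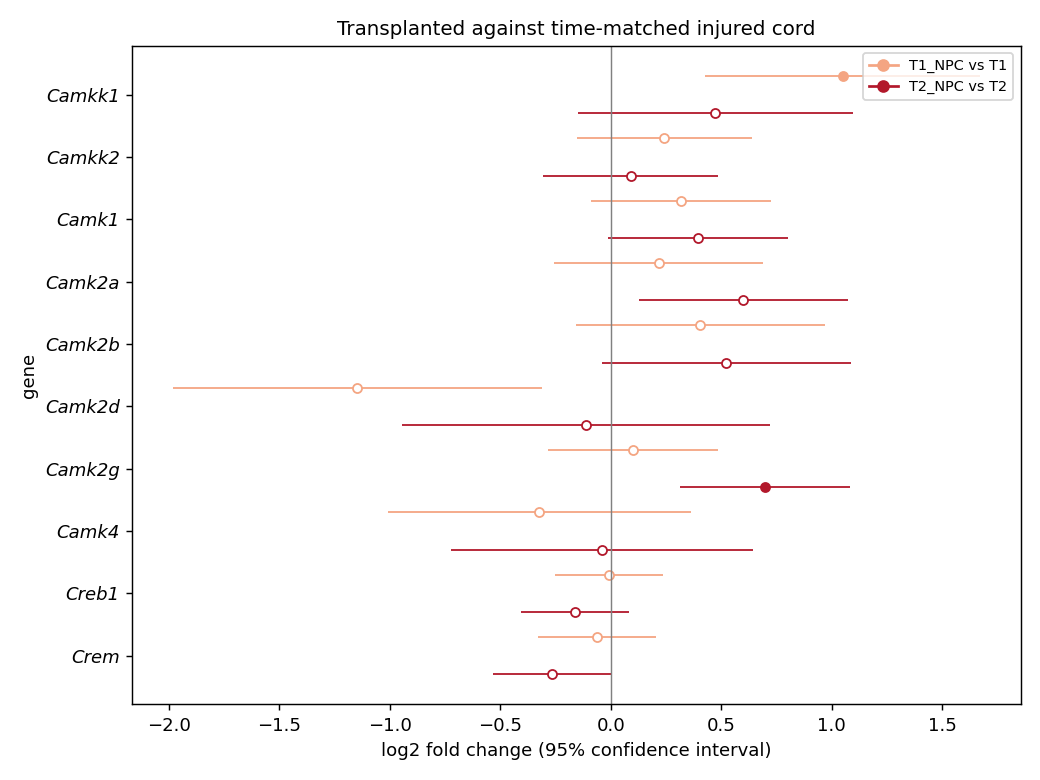
Log2 fold change of transplanted against time-matched injured cord (x axis) for each of the 10 genes (y axis), with 95% confidence intervals; filled points had an adjusted p below 0.05. The filled points are Camkk1 in T1_NPC at 1.05 and Camk2g in T2_NPC at 0.70, and the Camk2d probe was on 0 T1_NPC arrays well above background.

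Camk2a in T2_NPC lay at 5.51, 5.88, 6.23 and 6.03, above the T2 range of 5.26 to 5.36. That narrow range is a mean of a pair of probes that ran opposite ways in T2, the intron-spanning probe from 5.19 to 6.12 and the other from 4.50 to 5.52. The mean difference was 0.60 ± 0.23, adjusted p = 0.1 by limma. The 2 probes of Camk2a gave different values here. The probe annotated to the 3′ untranslated region changed by 1.09 ± 0.35 (adjusted p = 0.0452 by limma over single probes), and the intron-spanning probe by 0.10 ± 0.23 (adjusted p = 0.833), with groups that overlapped. Creb1 differed by -0.01 in T1_NPC (95% confidence interval -0.25 to 0.24) and -0.16 in T2_NPC (-0.41 to 0.08). It was not called in either, although all 4 T2_NPC arrays, the highest at 7.945, lay below the lowest T2 array at 7.950. Camkk2 differed by 0.24 (-0.15 to 0.64) and 0.09 (-0.31 to 0.49), and Camk4 by -0.32 (-1.01 to 0.36) and -0.04 (-0.72 to 0.64). Neuron markers did not pass the test in either comparison, 0 of 8 in each. Their mean ranged from 10.26 to 11.38 in T1_NPC and from 10.03 to 10.95 in T1. The mean over the microglia and macrophage markers ranged from 10.58 to 12.07 in T1_NPC and from 11.50 to 12.16 in T1. Of 3 progenitor markers 0 were called in T1_NPC and 1 was higher in T2_NPC, while their mean ranged from 13.79 to 14.01 in T1_NPC against 13.46 to 13.67 in T1. Of 5 oligodendrocyte markers 1 was higher in T2_NPC, the myelin protein gene Mbp at 1.43 ± 0.27 (adjusted p = 0.00182, limma). Their mean ranged from 15.42 to 15.54 in T2_NPC against 14.86 to 15.31 in T2, without overlap, but their median log2 change was 0.05. Camk2g was also higher in T2_NPC. Over the time course the oligodendrocyte mean was 15.69 in T0, 15.07 in T2, 15.18 in T4 and 14.94 in T8, while Camk2g was near T0 in T4 and T8. Of 5 skeletal muscle markers 1 was lower in T1_NPC, Acta1 at -0.66 ± 0.21 (adjusted p = 0.0423, limma). The part of these cells in the differences of the members was not tested. The difference between the transplantation effects was called for 0 members, beside 0.299% of all gene names. At an unadjusted p below 0.05 by limma 1 member, Camk2g, passed, with a log2 difference of 0.60 (0.05 to 1.14). At that level 3969 of all 35469 gene names passed.

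The features whose pattern over the 28 arrays was most like that of a member were sought among the 10864 features with a gene symbol that every array measured well above background. They are a description, since all arrays share the contrast of T0 with injury. Camkk2 was most like Camk1g, another CaM kinase, with Pearson's r of 0.97 over 28 arrays and 0.94 over the 24 injured arrays, and then Txndc13 and Plcxd2. Camk4 was most like Freq, a neuronal calcium sensor, at 0.98, then Npas1 and Ina. Camk2b was most like Gpr162, Slc1a6 and Necab3 at 0.96 to 0.97. Camkk1 was most like Clstn3, Golga7b and Slitrk1, and Camk2a most like Armcx6, Dclk3 and Rnf112, all at 0.90 to 0.91. Over the 24 injured arrays the former 3 gave 0.83 to 0.86, and the latter 3 gave 0.64 to 0.69. Camk1 was most like Stat5b, Mgat4b and Clcn7, at 0.94 to 0.95. Creb1 was most like Cenpt, Kif22 and Chek2 at 0.88. Camk2g was most like Cap2, Ntm and Gprc5b, Crem most like Lsm7, Tmem147 and Mrpl14, and the dim Camk2d probe was most like Tmem110, Krt15 and Rasgef1c at 0.65 to 0.68.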

How the data were processed

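Total RNA of 28 rat spinal cords was labelled with Cy3 and hybridised to 1-colour Agilent arrays of 45018 spots. The authors deposited scanner intensity values for each array, per the file headers made with Agilent Feature Extraction 10.7.1.1, and a value table of log2 values that the authors background corrected and quantile normalized. All columns of that table shared 1 distribution, with a median of 7.26. Between 74.5% and 82.7% of the spots were well above background on an array, 0 were saturated, and precision is limited by having 4 arrays in a group.

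The 43379 non-control spots were joined to gene names by feature number, averaged per probe (41012) and per gene name (35469), and fitted with limma 3.58.1 in R 4.3.3 (lmFit and eBayes, 1 mean per group, all 28 arrays). P-values were adjusted over all gene names by Benjamini-Hochberg, with a threshold of 0.05. Per the study's methods, the 4 arrays of a group came from separate animals. The members and lists were chosen with earlier results of these data known. All 10 members were named, and of each other list the gene with the largest change each way in T1 among those called. Whether a probe was well above background was read from the flag in the matched scanner output.

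Alternatives were other normalizations, probe rules, sample sets, slide, session and replicate blocks, and leaving out each array. Background correction by normexp (offset 50) used the spot median with the background median, since a spot mean was given for 8 arrays only. The fit was tested on simulated data. Promoter sequences are RefSeq's on GRCr8, and probe coordinates are rn4.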

Additional observations from a re-analysis of the deposited data

Results flagged for a closer look

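In 70 sets of 4 arrays (10 members in 7 groups), a highest or lowest array stood apart from the others in 2, where chance gives about 1 in 20. Camk2b in T2_NPC replicate 3 read 9.20 against 8.26 to 8.41 on the other arrays, and without it the difference of T2_NPC from T2 was 0.30 in place of 0.52. Camk2d in T1_NPC replicate 4 read 4.02 against 2.43 to 2.69, all not well above background, and without it the difference from T1 was called by limma (adjusted p = 0.0155).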

How the results depend on the processing

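Of 4220 values of a member in a comparison under an alternative, 4110 kept the direction and the side of the threshold. Taking the scanner outputs under their deposited samples left 0 members called in T1, T2, T4 and T8 against T0 and 0 in both transplantation comparisons, and Camkk1 in T1_NPC against T1 turned to -1.02. In T1 against T0, all 8 members called over all arrays changed less on the undisputed arrays. Those of the time course are the 8 arrays of scan session 1, with 1 array in T1 and in T4, assumed to vary like the others. No count of members called in T1 or T4 is therefore read from them. The within-session fits were chosen after seeing the data. Leaving out 1 array gave 8 members called in T1, 7 in T2, 5 to 7 in T4 and 5 to 6 in T8 against T0, 0 from T1 to T2 and from T4 to T8, and 0 for the difference between the transplantation effects. No undisputed value exists for T1_NPC, and slide or session as a fixed block could not be fitted for the transplanted groups.

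From T2 to T4, 1 member (Camk2g) was called with matched scanner signals, normexp, dim probes left out, eBayes with trend and robust settings, the time-course arrays only, slide as a block (fixed or random), scan session as a fixed block and within scan session 2, and leaving out 1 array gave 0 to 1. In T1_NPC against T1, 0 were called with normexp, with only the compared groups or with slide as a random block, and 0 to 2 without 1 array. In T2_NPC against T2, 0 were called at 2-fold or more, with only the compared groups or with slide as a random block, 2 with single probes, 2 on the undisputed arrays, and 0 to 1 without 1 array. The cause of these changes was not tested.

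With the replicate number as a replicate block, T1_NPC against T1 had 2 members called, Camk2d in addition, and the block changed no other member count by over 1.5 times. The numbers do not pair the samples: correlations of same-numbered deviations ran from -0.34 to 0.30, in 0 comparisons were all 4 above 0.1, and at most 2 of 4 samples correlated best with their own number.

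These ranges leave out the deposited samples, the 2-fold threshold, single probes and the fits without 1 array. For the time course they also leave out the undisputed arrays and the first scan session, with 1 array each of T1 and T4. Over the other settings, 14838 to 18591 gene names were called in T1 against T0 (15657 as reported) and 12589 to 17842 in T2 (14176). Those called ran from 12298 to 16865 in T4 (13638) and 12318 to 17845 in T8 (14098). They ran from 115 to 1702 for T2 against T1 (525), 0 to 374 for T4 against T2 (27), 2 to 120 for T8 against T4 (32), 1223 to 7397 for T1_NPC (4225), 1623 to 7399 for T2_NPC (3359) and 40 to 1976 for the difference between transplantation effects (106). Scaling to the 75th percentile moved the share of lower calls from 54.2% to 28.7% in T1_NPC, from 57.5% to 95.2% in the difference from 45.0% to 32.1% in T2 against T1 and from 33.3% to 60% in T4 against T2.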
